A study of Mus musculus with 24 samples.

Results

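The Fanconi anaemia repair genes were followed here in sorted hippocampal cells of mice with and without a conditional deletion of Notch2, which encodes a Notch receptor. The 10 genes are Fanca, Fancb, Fancc, Fancd2, Fance, Fancf, Fancg, Fanci, Fancl and Fancm, taken by symbol from the 48321 gene symbols of the count tables, and all 10 were found. The family was chosen by the counts of Fanci, which had stood out between the genotypes in earlier results of the same data. The difference of Fanci is therefore only described, and no test result for it is read as support. The question put to the other 9 genes was whether they followed it.

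The conditional knockout (CKO) pools came from adult C57BL/6 mice carrying Hes5::CreERT2, Notch2 flox/flox and Rosa26R-CAG::GFP. The wild-type (WT) pools came from adult C57BL/6 mice with the same Hes5::CreERT2 and Rosa26R-CAG::GFP alleles and Notch2 wt/wt. All animals received tamoxifen for 5 days, and GFP-positive cells were sorted after a chase of 1 day. Recombination was thus driven from Hes5, a Notch target gene of neural stem cells, and each sample was a pool of several animals, with 3 pools per genotype and 2 sequencing libraries per pool.

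The Fanconi anaemia pathway repairs DNA crosslinks that block replication forks. Fancm binds the stalled fork, a nuclear core complex that includes Fanca, Fancb, Fancc, Fance, Fancf, Fancg and Fancl assembles there, and its ubiquitin ligase subunit Fancl modifies the paired proteins Fancd2 and Fanci, which then recruit nucleases and recombination factors. The pathway is mainly used during S phase, so its genes are commonly read together with those of dividing cells. Inherited loss of it causes bone marrow failure in humans.

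Reads in genes numbered 41810239 to 53984963 in the CKO pools and 40366579 to 52682485 in the WT pools, so that 3 reads corresponded to 0.0526 to 0.0795 CPM (read counts of a gene scaled to the depth of the pool, with TMM factors). Notch2 had 65.3, 116 and 121 CPM in CKO pools 1 to 3, against 99.3, 146 and 303 CPM in WT pools 1 to 3, and the genotypes overlapped. Reads from exons that recombination leaves in place enter this count, so it is no full check of the deletion. Markers of stem cells and radial glia summed to 9191 to 13338 CPM in CKO and 5845 to 10678 CPM in WT pools, and all 10 were detected in every pool. Most of this sum was Slc1a3, with means of 8156 CPM in CKO and 5932 CPM in WT pools. Nes averaged 4.29 and 2.96 CPM and Hopx 32.9 and 47.4 CPM in the same order. The sum is therefore no measure of stem cells as such. Astrocyte markers summed to 16523 to 26161 CPM in CKO and 18673 to 20736 CPM in WT pools, and those of oligodendrocytes to 3170 to 5503 CPM and 2355 to 6337 CPM in the same order. Markers of oligodendrocyte precursors summed to 1078 to 3173 CPM in CKO and 1660 to 2796 CPM in WT pools. Neuroblast markers summed to 399 to 440 CPM in CKO and 255 to 617 CPM in WT pools. In the same order, neuron markers summed to 308 to 403 CPM and 328 to 856 CPM. Microglia markers summed to 176 to 561 CPM and 216 to 281 CPM. Endothelial, mural and blood markers each summed to at most 118 CPM in CKO and 392 CPM in WT pools, and Ly6c1 and Kcnj8 among them were at 0 in at least 1 pool. In bulk samples of such mixed cells fewer cells of a type and less RNA per cell cannot be told apart. Of 10 marker lists, 0 had summed levels that separated the genotypes.

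Fanci was the member with the largest fold difference between genotypes, and its genotypes did not overlap. Fanci (ENSMUSG00000039187.16, chromosome 7, 79391929 to 79450264, plus strand, GRCm38) encodes the partner of Fancd2 in the clamp that is loaded on damaged DNA. It stood at 8.70, 10.8 and 14.6 CPM in CKO pools 1, 2 and 3, against 0.475, 1.53 and 0.980 CPM in WT pools 1, 2 and 3. The lowest CKO pool was thus above the highest WT pool, and the means of 11.4 ± 2.98 CPM in CKO and 0.996 ± 0.530 CPM in WT (SD, n = 3 pools each) differed 11.4-fold. The fitted log2 fold change was 3.51 (SE 0.67), with 4.07 from the library 1 reads alone and 3.19 from those of library 2, and between 3.19 and 4.01 when any 1 pool was left out. In single libraries the reads of Fanci numbered 43 and 453, 299 and 183, and 277 and 464 in libraries 1 and 2 of CKO pools 1, 2 and 3. They numbered 5 and 19, 23 and 42, and 7 and 30 in WT pools 1, 2 and 3. At matched scaling, 5 of 6 CKO libraries were above every WT library, and only library 1 of CKO pool 1, at 1.55 CPM, was below the highest WT library, at 2.13 CPM.

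**Figure D1:**
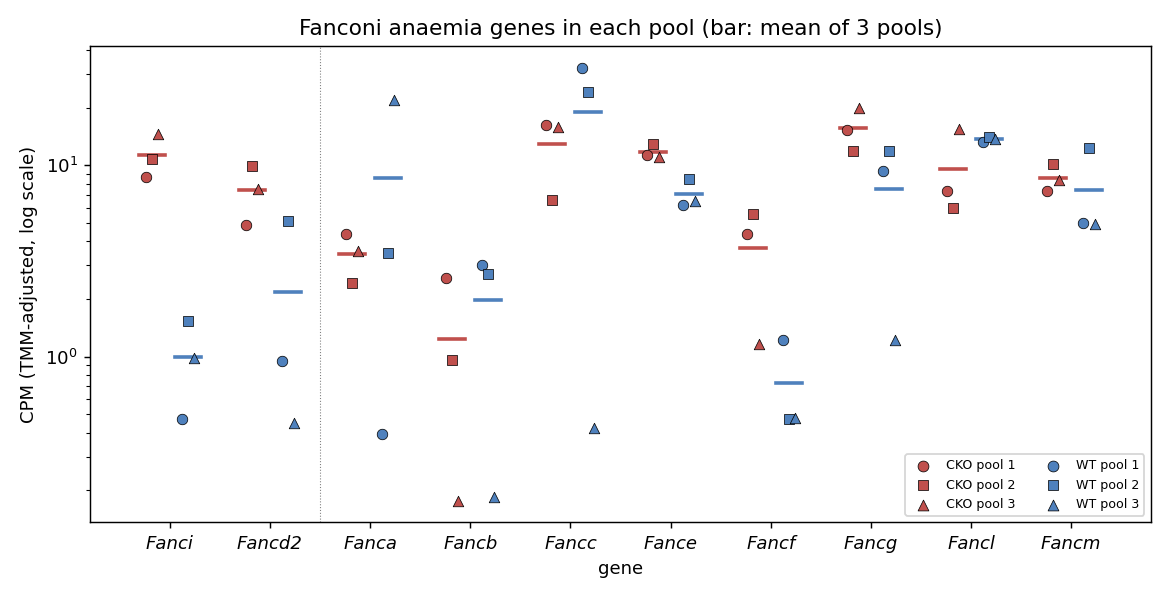
CPM of the 10 genes on a log axis, with CKO pools in red left of WT pools in blue, a symbol per pool and a bar at the mean of 3 pools. Fanci shows the widest gap between genotypes, with 8.70 to 14.6 CPM in CKO against 0.475 to 1.53 CPM in WT pools, and WT pool 3 lies apart in Fanca, at 21.9 CPM, and in Fancc, at 0.424 CPM.

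Polg, which encodes the mitochondrial DNA polymerase, overlaps the 3′ end of Fanci on the opposite strand and shares 921 of its exon bases, 16.0% of them. Counting at these bases cannot assign reads where strand is not marked. Polg had 67.1, 82.7 and 62.6 CPM in CKO pools, against 22, 66.3 and 76.6 CPM in WT pools, and the genotypes overlapped. This level covers the whole gene and does not show how many reads fell on the shared bases. The part of the shared bases in the Fanci counts was not tested.

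As a family the other members did not all share the direction of Fanci. Of the 10 genes, 6 had a log2 fold change above 0 (Fanci, Fancd2, Fance, Fancf, Fancg and Fancm), where 47.2% of all 21477 tested genes did. The median log2 fold change was 0.21 over the 9 genes other than Fanci, with single SEs of 0.43 to 1.28, and -0.06 over all tested genes. In edgeR's quasi-likelihood test 0 of the 10 passed an adjusted p under 0.05, and 0% of all genes did (adjusted p of the 9 other members 0.790 to 0.934). At an unadjusted p under 0.05, where 5.91% of all genes lay (3.01% higher in CKO), there was 1 of the 9 other members, Fancf. DESeq2 called 129 of all genes and 0 of these 9. Every CKO pool was above every WT pool for 2 members, Fanci and Fance, where 7.67% of all genes showed this, and below for 0 members, where 8.17% did. Where these counts include Fanci, whose values led to the choice of the family, nothing is read from them.

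Summed over the 9 genes other than Fanci, the level was 73.9, 66.2 and 82.9 CPM in CKO pools, against 71.7, 82.5 and 49.9 CPM in WT pools. The pools overlapped, with means of 74.3 ± 8.33 CPM in CKO and 68.0 ± 16.7 CPM in WT (SD, n = 3 each). Fanci made up 10.5%, 14.0% and 15.0% of the family's summed CPM in CKO pools, against 0.658%, 1.82% and 1.93% in WT pools.

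Fancd2 (chromosome 6, 113531682 to 113597017, plus strand), the partner of Fanci, was higher in CKO on average but not in every pool. It had 4.86, 9.91 and 7.49 CPM in CKO pools 1 to 3, against 0.949, 5.12 and 0.450 CPM in WT pools 1 to 3. Of the WT pools only pool 2 reached the CKO range, just above CKO pool 1. Its log2 fold change was 1.77 (SE 0.97, edgeR adjusted p = 0.790) and became 3.46 without WT pool 2. In library 1 it was 2.07 and in library 2 it was 1.46. Per kb of exon, Fanci stood at 2.46, 1.5 and 2.67 times the level of Fancd2 in CKO pools, against 0.687, 0.412 and 2.99 times in WT pools. The ratio of the partners thus did not separate the genotypes. That overlap came from WT pool 3 alone, where Fanci had 37 reads and Fancd2 had 17. WT pools 1 and 2 lay below every CKO pool.

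Fancf (chromosome 7, 51860577 to 51862267, minus strand), a single-exon gene for an adaptor subunit of the core complex, was also low in WT. It had 4.37, 5.54 and 1.16 CPM in CKO pools, against 1.23, 0.472 and 0.477 CPM in WT pools. CKO pool 3 lay within the WT range and the other CKO pools above it. On the log2 scale the fold change was 2.34 (SE 0.90, edgeR adjusted p = 0.790), with 0.99 in library 1 and 2.86 in library 2. In CKO pool 2 the gene had 6 reads in library 1 and 241 in library 2.

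Fance (chromosome 17, 28313519 to 28326572, plus strand), which encodes the core subunit that contacts Fancd2, showed a smaller and more even difference. It had 11.4, 12.9 and 11.0 CPM in CKO pools, against 6.21, 8.52 and 6.46 CPM in WT pools, with means of 11.8 ± 1.02 and 7.06 ± 1.27 CPM (SD, n = 3 each). The pools did not overlap, and the log2 fold change was 0.74 (SE 0.43, edgeR adjusted p = 0.794). It was 1.08 (SE 0.58) in library 2 and 0.064 (SE 0.94) in library 1. With these SEs it is not settled whether the libraries differed in this.

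Bases before the RefSeq start are shown for Fanci, Fance and Fancf. Fanci and Fance had pools that did not overlap, and Fancf had the next smallest unadjusted p. These bases are the stretches before the RefSeq start that lie in no annotated exon of the gene. They come from RefSeq on GRCm38.p6 and run 5′ to 3′ on the strand of the gene. Windows were at hand for 9 of the 10 members, and 5 of these held such bases. Capitals mark matches, on either strand, to the Rbpj motif TGGGAA, the Hes motif CACGNG, the E2F motif TTTNNCGC and the CCAAT box. Rbpj is the DNA-binding partner of Notch, the Hes proteins are its effectors, and E2F factors drive S phase genes. The stretch of Fanci lies at chr7:79392266-79392307, that of Fance at chr17:28313280-28313518 and that of Fancf, on the minus strand, at chr7:51862268-51862517. The bases of Fanci lie inside its annotated span, which starts at 79391929, and between its exons. They are therefore not upstream of the gene as annotated.
Fanci: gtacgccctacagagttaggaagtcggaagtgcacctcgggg
Fance: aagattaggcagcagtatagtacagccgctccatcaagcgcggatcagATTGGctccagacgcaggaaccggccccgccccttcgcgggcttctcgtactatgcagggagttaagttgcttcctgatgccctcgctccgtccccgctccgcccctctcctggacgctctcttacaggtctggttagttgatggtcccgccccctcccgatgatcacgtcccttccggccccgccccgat
Fancf: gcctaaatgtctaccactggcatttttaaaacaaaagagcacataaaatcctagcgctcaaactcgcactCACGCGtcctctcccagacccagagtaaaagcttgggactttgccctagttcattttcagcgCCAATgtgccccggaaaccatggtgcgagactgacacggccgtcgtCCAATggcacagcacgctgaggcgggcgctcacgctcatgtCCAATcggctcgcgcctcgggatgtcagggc

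The 42 bases of Fanci held none of the 4 motifs. The commonest of these, the CCAAT box, is found in 9.32% of stretches of that length and place. As these bases lie inside the annotated span of Fanci, the sequence before that span was not searched. The 239 bases of Fance held 1 CCAAT box, read on the opposite strand from base 49, where 33.0% of the same stretch of 32851 RefSeq windows hold a CCAAT box. The 250 bases of Fancf held 3 CCAAT boxes, from bases 133, 179 and 220, and 1 Hes motif from base 71. At least 1 CCAAT box is found in 33.9% and the Hes motif in 23.5% of such windows. None of the 3 stretches held the Rbpj or the E2F letters. These are found in 21.6% and 4.28% of windows of 250 bases, as for Fancf, and in 20.8% and 4.03% of the stretches matched to Fance. For the 42 bases of Fanci the matched shares are only 3.46% and 0.694%, so their absence there tells little. Fanca and Fancb also had such stretches, not printed here. The 138 bases of Fancb, whose log2 fold change was -0.67, held a Hes motif from base 9, read on the opposite strand, and a CCAAT box from base 50. These are found in 12.4% and 18.5% of the same stretches. The 175 bases of Fanca held none of the 4 motifs. These matches describe the sequence and are not sites of binding.

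Fancg (chromosome 4, 43002343 to 43010506, minus strand), a core subunit that binds Fanca, had 15.4, 11.8 and 19.9 CPM in CKO pools, against 9.38, 11.8 and 1.22 CPM in WT pools. CKO pool 2 and WT pool 2 were level, and WT pool 3 lay far below the rest. On plain library totals the pools did not overlap (16.2, 12.6 and 19.3 CPM in CKO, against 9.0, 11.9 and 1.14 CPM in WT), which made 3 members with every CKO pool higher, where 9.11% of all genes showed this on that scale. With a log2 fold change of 1.07 (SE 0.79 and adjusted p = 0.804 in edgeR) over all reads, library 1 alone gave 2.18 and library 2 gave 0.48. Leaving out WT pool 2 gave 1.65 and leaving out WT pool 3 gave 0.56.

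Fancm (chromosome 12, 65075603 to 65132058, plus strand), the translocase that recognises the fork, did not separate. It had 7.37, 10.1 and 8.34 CPM in CKO pools, against 4.98, 12.3 and 4.95 CPM in WT pools. WT pool 2 was the highest of all pools. A log2 fold change of 0.21 (SE 0.56 and adjusted p = 0.934 in edgeR) became 0.79 in library 1 and -0.23 in library 2, and lay between -0.013 and 0.84 when a single pool was left out, the extremes being without WT pool 3 and without WT pool 2. In WT pool 3 the gene had 0 reads in library 1 and 187 in library 2.

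The remaining 4 genes had log2 fold changes below 0. Fancl (chromosome 11, 26386135 to 26471876, plus strand), the ubiquitin ligase, had 7.37, 5.97 and 15.5 CPM in CKO pools, against 13.2, 14.0 and 13.7 CPM in WT pools. It was the steadiest gene of the family among WT pools, with CKO pools 1 and 2 below them and CKO pool 3 above them. Fancl had a log2 fold change of -0.51 (SE 0.50 and adjusted p = 0.835 in edgeR), -0.996 without CKO pool 3 and -0.26 without CKO pool 2. The library 1 reads gave -0.97 and those of library 2 gave -0.099.

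Fanca (chromosome 8, 123268300 to 123318576, minus strand), the core subunit most often mutated in patients, had 4.39, 2.42 and 3.56 CPM in CKO pools, against 0.396, 3.49 and 21.9 CPM in WT pools. The WT pools spanned a 55.4-fold range with the CKO pools inside it. The log2 fold change of -1.31 (SE 1.21 and adjusted p = 0.829 in edgeR) rested on WT pool 3 and was 0.84 without it. That level was present in both libraries of the pool, with 272 and 556 reads.

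Fancc (chromosome 13, 63285043 to 63497278, minus strand), a core subunit that binds Fance, showed the opposite in the same pool. It had 16.2, 6.59 and 15.8 CPM in CKO pools, against 32.4, 24 and 0.424 CPM in WT pools. WT pools 1 and 2 were above every CKO pool, while WT pool 3 had 8 reads in each of its libraries. Its log2 fold change of -0.56 (SE 1.17 and adjusted p = 0.918 in edgeR) was -1.13 without WT pool 3, 0.10 without WT pool 1, -0.26 without WT pool 2 and -0.24 without CKO pool 2. The description of WT pool 3 carries the tag 2K, the lowest among the pools (4K to 19K in CKO and 2K to 20K in WT). What the tag stands for is not stated in the labels, and its part in these values was not tested.

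Fancb (chromosome X, 164980592 to 164997272, plus strand), the partner of Fancl in the core, had counts that differed more often between libraries of a pool than those of any other member. It had 2.58, 0.965 and 0.177 CPM in CKO pools, against 3.01, 2.71 and 0.185 CPM in WT pools. The third pool of each genotype held only 9 reads in CKO and 7 in WT. In CKO pool 1 its reads came almost entirely from library 1, 146 against 1, and in WT pools 1 and 2 from library 2, 145 against 7 and 115 against 0. Its log2 fold change of -0.67 (SE 1.28 and adjusted p = 0.909 in edgeR) lay between -1.78 without CKO pool 1 and -0.091 without CKO pool 3. It was -0.20 without WT pool 1, -0.27 without WT pool 2 and -1.21 without WT pool 3. The library 2 reads alone gave -3.57 (SE 1.47), and in library 1 alone the gene did not pass the filter on low counts.

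**Figure D2:**
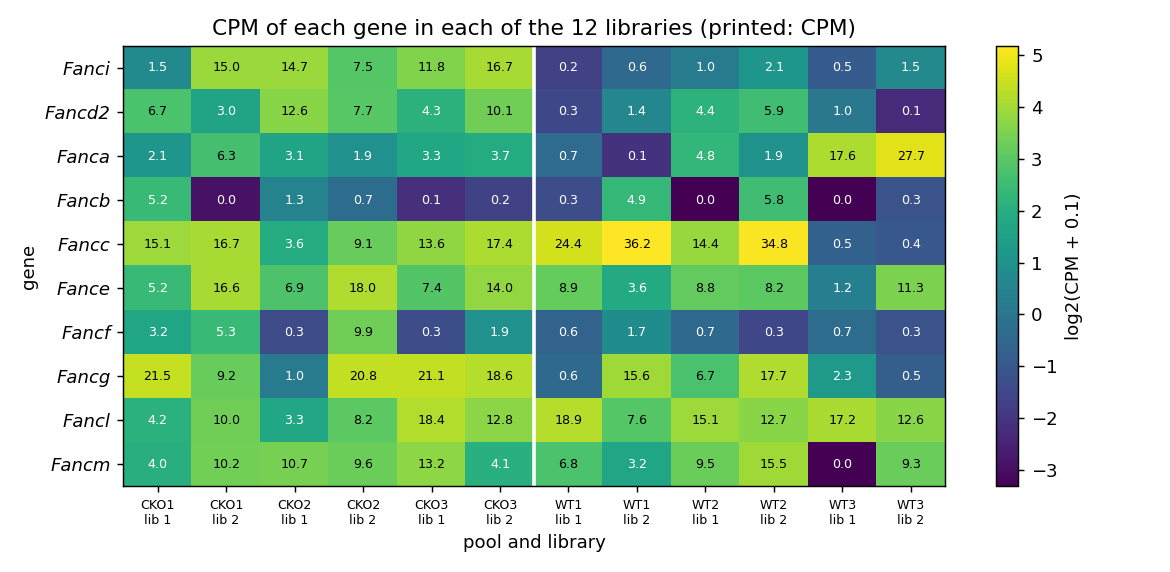
CPM of the 10 genes (rows) in the 12 libraries (columns, CKO left of WT), with colour on a log2(CPM + 0.1) scale and the CPM printed in each cell. Fanci is low in every WT library, at 0.214 to 2.13 CPM, while Fancb, Fancf and Fancg differ widely between libraries of the same pool.

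Other members also share exon bases with genes on the opposite strand, and their counts are uncertain to that extent. Fanca shares 920 bases (10.5% of its exons) with Zfp276, Fancf 253 (15.0%) with Gas2, Fancl 462 (13.7%) with Vrk2 and Fancc 1373 (16.4%) with Gm16133. Zfp276 had 24, 28.6 and 12.6 CPM in CKO pools, against 32.8, 38.8 and 30.0 CPM in WT pools, without the single high pool that Fanca showed. Gas2 averaged 29.0 ± 5.04 CPM in CKO and 34.1 ± 9.02 CPM in WT pools, and Vrk2 6.44 ± 3.64 CPM in CKO and 3.45 ± 2.27 CPM in WT pools (SD, n = 3 each). Gm16133 did not exceed 0.606 CPM in any pool. Fancc also shares 185 bases (2.21%) with 2010111I01Rik, which had 32.7, 39.9 and 32.6 CPM in CKO pools, against 29.9, 47.4 and 37.0 CPM in WT pools. Fancd2 shares 257 bases with Fancd2os, which did not pass the filter on low counts. Fancm shares 575 bases with Gm47870 and 163 with Gm47869, and Fance 104 with CT025652.1, 3 genes with no row of their own in the count tables. The part of the shared bases in these counts was not tested.

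Libraries of a pool disagreed widely, and gaps of over 2 log2 units were about as common among the members as among all tested genes. The absolute log2 difference in CPM between libraries 1 and 2 of a pool had a median of 1.24 over the 60 pairs of member and pool, and of 0.83 over all tested genes. It exceeded 2 log2 units in 14 of the 60, or 23.3%, where 20.5% of pairs did so over all genes. Of these 14, Fancb held 4, Fancg 3, Fancd2 and Fancf 2 each, and Fance, Fanci and Fancm 1 each. Fanca, Fancc and Fancl had 0. All 6 CKO libraries were above all WT libraries for 0 members, where 0.410% of all genes showed this.

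**Figure D3:**
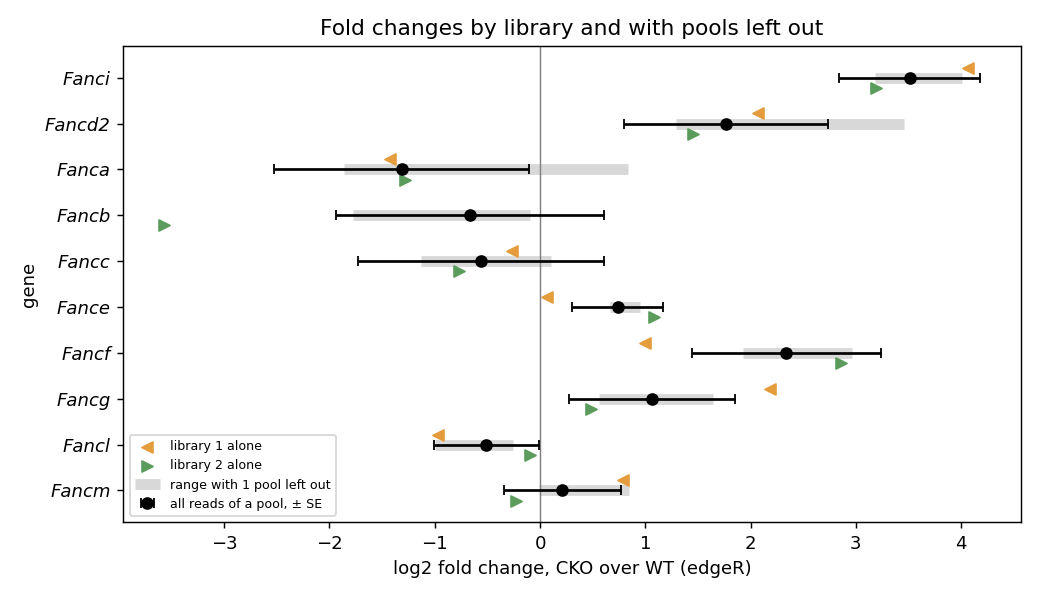
Log2 fold changes of CKO over WT for the 10 genes, with black points for all reads of a pool (bars ± SE), triangles for library 1 and library 2 alone, and grey bands for the range when 1 pool is left out. Fanci stays between 3.19 and 4.07 in these settings, whereas the band of Fanca runs from -1.86 to 0.84 and crosses 0, as do those of Fancc and Fancm. Fancb was not tested in library 1.

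Levels of different genes were compared per kb of exon, that is CPM divided by the summed length of all annotated exons. In CKO pools Fancg was highest at 4.13 ± 1.07 CPM per kb, then came Fance at 3.69 ± 0.319, Fancl at 2.85 ± 1.52, Fancf at 2.18 ± 1.34 and Fanci at 1.97 ± 0.515 (SD, n = 3 pools). Fancc, Fancd2, Fancm, Fancb and Fanca followed, the last at 0.395 ± 0.113 CPM per kb. In WT pools Fancl was highest at 4.05 ± 0.128 CPM per kb, then came Fancc, Fance, Fancg, Fanca, Fancm, Fancb and Fancf, and the lowest were Fancd2 at 0.274 ± 0.323 and Fanci at 0.173 ± 0.0918 CPM per kb. Fanci thus ranked 5 of 10 in CKO and 10 of 10 in WT, and it kept these places when the longest transcript was taken as the length. With that length Fance led in CKO at 5.37 CPM per kb, ahead of Fancg at 5.27, and Fancc led in WT at 5.98, ahead of Fancl at 5.02. Neighbours in the order had overlapping pools in 9 of 9 cases in CKO and 8 of 9 in WT, where only Fancl and the next gene, Fancc, were separate, a pair whose order turned with the longest transcript. The order beyond broad differences is therefore not resolved.

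**Figure D4:**
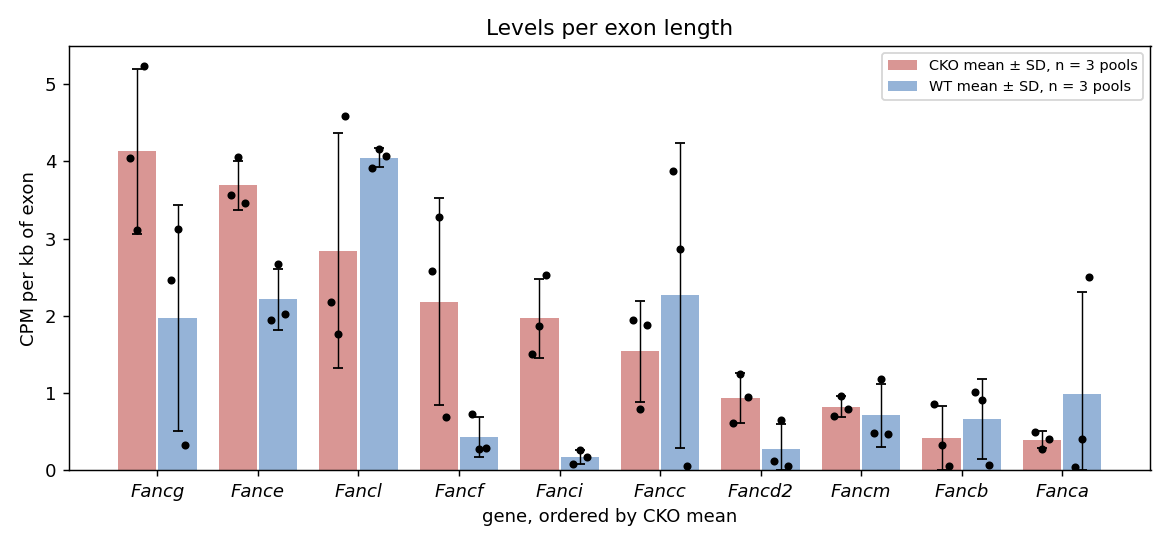
CPM per kb of exon of the 10 genes, ordered by their CKO mean, with bars for the mean and lines for the SD of 3 pools (CKO in red left of WT in blue, lower lines end at 0) and dots for single pools. Fanci stands at 1.97 CPM per kb in CKO against 0.173 in WT, where it is the lowest of the 10 and Fancl leads at 4.05.

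Likeness to Fanci was measured as the root mean square difference of log2 CPM over the 6 pools, each gene centred on its own mean. Among the members Fancd2 was nearest at 1.04 log2 units, with 260 tested genes nearer, then came Fancf at 1.43, Fance at 1.47 and Fancg at 1.53. Fancb was the farthest at 2.79. Among 14773 further genes whose log2 CPM averaged 1 or more, the 5 nearest were Cdca7l at 0.56, Frem1 at 0.67, 2210418O10Rik at 0.77, Fgf2 at 0.78 and Strn at 0.78. Cdca7l had 7.09, 14.5 and 7.87 CPM in CKO pools, against 0.297, 1.46 and 0.371 CPM in WT pools.

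Partners of the core complex and of the Fanci and Fancd2 pair were mixed. Of 10 such genes, 0 passed the adjusted threshold, 5 were above 0 and 5 below, and the median log2 fold change was -0.17. Ube2t, the conjugating enzyme that works with Fancl, was lower in each CKO pool, at 4.93, 4.80 and 4.39 CPM, against 9.67, 13.5 and 7.84 CPM in WT pools (log2 fold change -1.13, SE 0.48). Usp1, the enzyme that removes ubiquitin from the pair, was higher in each CKO pool, at 19.3, 11.8 and 8.73 CPM, against 4.89, 6.58 and 4.19 CPM in WT pools (1.35, SE 0.51). Uhrf1, a sensor of crosslinks and of hemimethylated DNA, stood at 24.2, 13.2 and 25.8 CPM in CKO pools, against 9.26, 10.4 and 5.85 CPM in WT pools (1.31, SE 0.46). The genotypes did not overlap for these 3 genes, which were named for that reason, and each had an edgeR adjusted p of 0.790. Of the 10 genes, 2 were higher and 1 lower in CKO throughout, where 7.67% of all genes were higher and 8.17% lower.

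Among 18 genes of the repair steps after ubiquitination, 0 passed, 13 were above 0 and 5 below, with a median log2 fold change of 0.39. The pools of 5 were higher and of 1 lower in CKO throughout, where 7.67% of all genes were higher and 8.17% lower. Palb2, a recombination mediator, had 12.5, 8.52 and 3.25 CPM in CKO pools, against 0.138, 2.03 and 0.848 CPM in WT pools. Its log2 fold change of 3.0 (SE 1.06) was 1.25 in library 1 and 5.62 in library 2. Dclre1a, a crosslink nuclease, had 12.7, 22.4 and 19.8 CPM in CKO pools, against 4.55, 9.09 and 1.64 CPM in WT pools (1.84, SE 0.68). Rev1, of translesion synthesis, averaged 12 ± 1.88 CPM in CKO and 5.57 ± 1.83 CPM in WT pools (1.11, SE 0.48), and Xrcc2, a homologous recombination gene, 9.87 ± 2.24 CPM in CKO and 3.24 ± 2.51 CPM in WT pools (1.61, SE 0.75, and 2.43 without WT pool 2). Mad2l2, the other translesion gene named here, averaged 29.0 ± 7.61 CPM in CKO and 51.3 ± 17.9 CPM in WT pools (-0.82, SE 0.37). That was -1.65 in library 1, -0.049 from library 2 and -0.48 without WT pool 1. All had an edgeR adjusted p of 0.790 (SD, n = 3 pools each).

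The BLM helicase complex and the single-strand binding proteins had 4 of 7 genes above 0 and a median of 0.47. Rmi1, a scaffold of that complex, averaged 15.9 ± 8.75 CPM in CKO and 4.27 ± 2.99 CPM in WT pools (log2 fold change 1.89, SE 0.83, edgeR adjusted p = 0.790), with 3.52 in library 1 and 1.04 in library 2. Its CKO pool 2, at 6.84 CPM, was nearly level with WT pool 1, at 6.61 CPM. Rpa3, of the single-strand binding proteins, went the other way (-0.76, SE 0.41, edgeR adjusted p = 0.790), and its pools overlapped. Rpa1 and Rpa2 were also below 0, at -0.16 and -0.28. Genes of damage signalling had 6 of 14 above 0 (median -0.12), end joining 5 of 7 (0.12), excision repair 7 of 13 (0.021), mismatch repair 4 of 7 (0.27), p53 targets 6 of 11 (0.17) and aldehyde clearance 2 of 5 (-0.047). In each of these lists 0 genes passed.

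Genes of dividing cells are given beside the family because the pathway acts in S phase. Of 29 S phase genes 12 were above 0 and 17 below, with a median log2 fold change of -0.13, and their summed level was 801 to 893 CPM in CKO and 585 to 996 CPM in WT pools. Of 20 mitosis genes 13 were above 0 and 7 below, with a median of 0.21, and their summed level was 307 to 487 CPM in CKO and 220 to 392 CPM in WT pools. The pools of 2 S phase genes and 5 mitosis genes were higher in CKO throughout, 6.90% and 25.0% of them, where 7.67% of all genes were. Ccne1, which encodes the cyclin of S phase entry, had 7.60, 7.16 and 7.99 CPM in CKO pools, against 2.16, 1.60 and 0.795 CPM in WT pools (2.32, SE 0.62, edgeR adjusted p = 0.790, 0.55 in library 1 and 3.59 in library 2), and DESeq2 called it. Bub1, a spindle checkpoint kinase, averaged 9.17 ± 2.30 CPM in CKO and 1.54 ± 1.16 CPM in WT pools (2.57, SE 0.82, with 4.61 from library 1 and 1.74 from library 2). Mki67, a marker of cycling cells, averaged 23.9 ± 5.82 CPM in CKO and 8.24 ± 3.76 CPM in WT pools (1.54, SE 0.51), and both had an edgeR adjusted p of 0.790 (SD, n = 3 pools each). Genes of these lists also lay lower, of which 2 are given here, chosen after their values were seen. Birc5, a subunit of the chromosomal passenger complex, had 12.5, 16.6 and 18.6 CPM in CKO pools, against 45.8, 15.6 and 63.9 CPM in WT pools (-1.39, SE 0.53, edgeR adjusted p = 0.790). Tyms, which encodes thymidylate synthase, had 15.1, 16.0 and 22.5 CPM in CKO pools, against 41.8, 18.7 and 35.3 CPM in WT pools (-0.84, SE 0.41, edgeR adjusted p = 0.790). The genotypes overlapped in both genes. In both lists 0 genes passed, and neither sum separated the genotypes as Fanci did. The part of dividing cells in the level of Fanci was not tested.

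**Figure D5:**
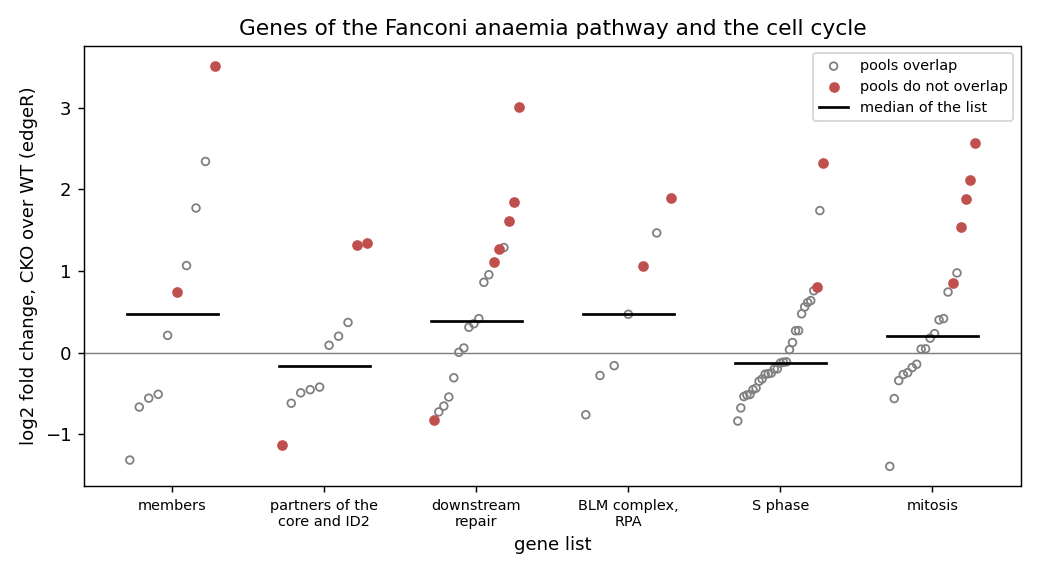
Log2 fold changes of CKO over WT for the 10 members and for 5 further lists, with a point per gene, red where the pools of the genotypes do not overlap, and a line at the median of the list. Fanci is the highest point at 3.51, and the medians of the lists lie between -0.17 and 0.47.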

How the data were processed

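Libraries were Smart-Seq2 cDNA cut with Nextera XT, per the labels' protocols, and do not mark strand. The deposited tables hold raw read counts per gene. The submitters' processing notes name Bowtie2, HTSeq and GRCm38, with no version, annotation or strand setting of the counting. Reads that named no gene, 35.1% to 49.1% per pool, were left out. Lanes agreed within sampling noise (chi-square per degree of freedom 0.986 to 1.01), so the 4 runs of a pool (2 libraries on 2 lanes) were summed into 1 replicate. No label says that pools shared no animals, so the p-values refer to the spread of these pools, which may be technical.

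Across all genes, edgeR 4.0.16 was fitted to genotype (filterByExpr, TMM, robust quasi-likelihood F test, Benjamini-Hochberg adjustment over 21477 genes, threshold 0.05). All 10 members passed the filter, Fancb with at least 10 reads in 2 of 3 pools of each genotype. DESeq2 1.42.0 and limma 3.58.1 served as alternatives. Without molecular identifiers, read numbers bound the counting error only. Positions and exon lengths came from GENCODE M21 and the printed sequences from RefSeq.

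The members and lists were chosen with earlier results of these data known. Pathway genes were named where pools did not overlap and the mean was at least 1 CPM, at most 4 per list and direction by unadjusted p. From other lists at most 2 were named by unadjusted p, and Birc5 and Tyms were added after their values were seen.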

Additional observations from a re-analysis of the deposited data

How the results depend on the processing

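Across 16 alternatives the 10 members gave 159 log2 fold changes, of which 8 changed sign. Fanca ran from -1.86 to 0.84 when single pools were left out, positive only without WT pool 3, and was 0.52 in limma-voom with quality weights. Fancc ran from -1.13 to 0.10, positive without WT pool 1, and was 0.41 with libraries weighted equally and 0.071 with the pool number as a replicate block. Fancm ran from -0.013 to 0.84, negative without WT pool 3, and was -0.23 with library 2 alone and -0.047 in limma-voom. The cause was not tested. Fanci stayed between 3.01 and 4.07. DESeq2 called 129 genes and 1 member, Fanci, whose values chose the family, so this call supports nothing. The other alternatives, those with a pool left out included, called 0 genes. Between 5 and 7 members lay above 0. Same-numbered pools did not deviate together (correlations 0.056, 0.022 and -0.028). The replicate block called 0 genes and put 7 members above 0. On plain library totals, chosen after seeing the data, 3 members in place of 2 had separate pools. Averaged over all 6 pools, Fancc stood at 1.90 CPM per kb of summed exons and at 5.02 with the longest transcript as length. Fance stood at 2.95 CPM per kb of summed exons and at 4.30 with the longest transcript. From library 1 alone Fance stood at 2.0 CPM per kb of summed exons. Fancb could not be tested in library 1. With 3 pools per genotype and a common biological coefficient of variation of 0.725, small differences were not detectable. In edgeR the smallest adjusted p over all tested genes was 0.790. The lack of calls therefore does not exclude large differences either.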
